A study of Drosophila melanogaster with 5 samples.

Results

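The Sox family of transcription factors was examined in H3K18ac Cut&Run data from Drosophila melanogaster wing imaginal discs. The genes taken were Sox15 (FBgn0005613), Sox14 (FBgn0005612), Sox102F (FBgn0039938), SoxN (FBgn0029123), Dichaete (D, FBgn0000411) and Sox100B (FBgn0024288). They are 6 of the 8 Sox genes in the annotation, chosen by name and with earlier results of these data known. A peak counted as a member when the table gave it the identifier of one of these genes, or when it lay inside Sox15 although another gene was named for it. By this rule 8 of the 2626 listed peaks were members, of which 6 carried a Sox identifier and 2 lay inside Sox15 under another name. The 8 peaks fell on Sox15 (4 peaks), Sox102F (3 peaks) and Sox14 (1 peak), and SoxN, D and Sox100B had none.

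Discs came from male and female wandering larvae, of the third instar, of the w1118 strain. The etomoxir group held 2 libraries of explants kept in medium with 500 µM etomoxir for 2 h, an inhibitor of the carnitine palmitoyltransferase that admits long-chain fatty acids into mitochondria for β-oxidation. The control group held 3 libraries, of which 2 were explants kept in plain medium over the same 2 h and 1 was processed straight after dissection, so culture itself was shared by every etomoxir library but not by every control library. All were incubated with an antibody against acetylated lysine 18 of histone H3. The table gives, for each peak, the authors' mean of each group as a log2 normalized read count and no value per library. No error, interval or test could therefore be computed for any value below, and a difference between 2 peaks could not be set against replicate spread. The table holds only peaks that the authors' comparison of the groups had passed at a false discovery rate (FDR) of 0.05, so that a listed peak had to differ between the groups and a peak of equal signal would not appear. Whole discs were used, so fewer acetylated cells and less acetylation per cell cannot be told apart.

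Sox proteins bind the minor groove of DNA through a high mobility group (HMG) domain and bend it, with a preference for sequences around AACAAT. In flies, Sox15 is the SoxF protein. It is expressed in the hinge of the wing disc, where it acts in a feedback loop that restrains wingless transcription, and in the socket cells of sensory organs. Sox14 is induced by the moulting hormone ecdysone and drives dendrite pruning at metamorphosis, Sox102F is a SoxD protein with roles in neurons, SoxN and D are SoxB proteins of the early neuroectoderm, and Sox100B is a SoxE protein needed in the male gonad. Acetylation of H3K18 is laid down mainly by the CBP/p300 acetyltransferases (nejire in flies) at active promoters and enhancers.

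All 8 Sox peaks had less H3K18ac in etomoxir-treated discs than in control discs as the authors normalized them, and 4 of the 8, those of Sox15, were also below the median difference of all listed peaks (-1.08). Among all listed peaks 2194 of 2626 (83.5%) were lower after etomoxir, so that 8 of 8 lower is close to the share in the whole table. Etomoxir minus control (log2) ranged from -2.19 to -0.67 over the 8 peaks, with a median of -1.37, against a median of -1.19 over the 2194 lower peaks. Of the 13986 protein-coding genes annotated, 7.98% were assigned a listed lower peak and 2.07% a listed higher one. Of the 6 Sox genes, 3 were assigned a lower peak and 0 a higher one. Because the 6 genes were chosen with earlier results of these data known, this count is no independent measure of enrichment. The 8 peaks comprised 4 promoter and 4 intronic peaks, and the separation among them followed the gene: the 4 peaks of Sox15 fell most, and those of Sox14 and Sox102F fell less.

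**Figure D1:**
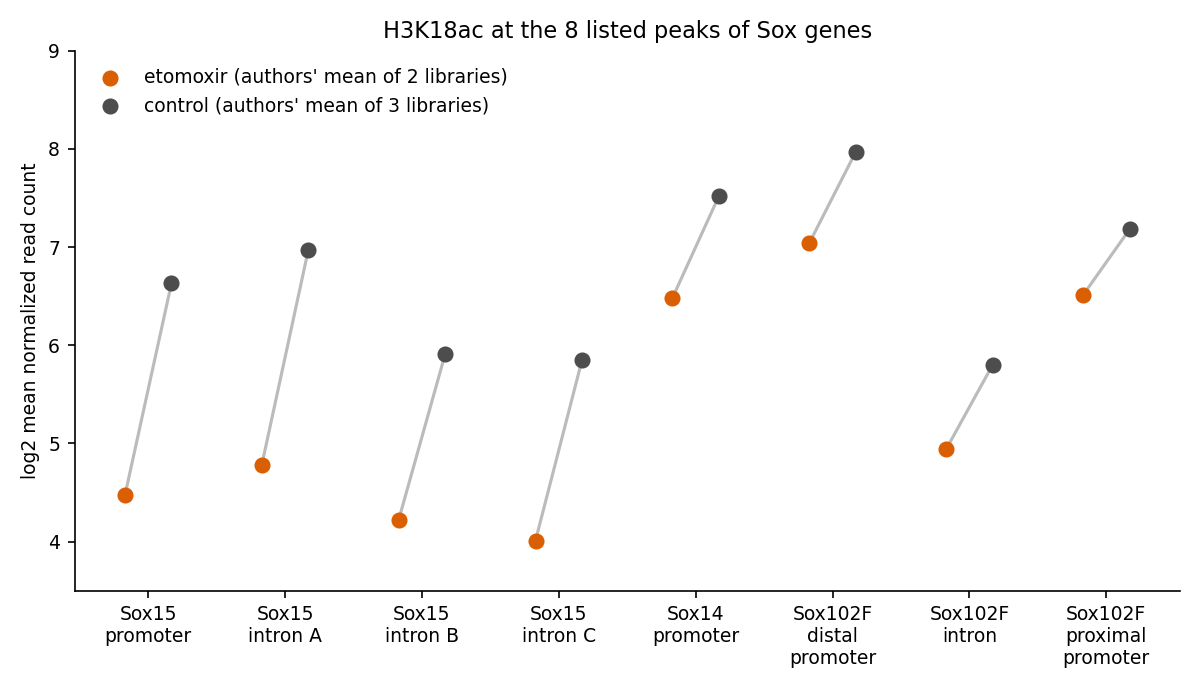
Log2 mean normalized read count (vertical axis) at each of the 8 Sox peaks, with the authors' mean of 2 etomoxir libraries on the left of each pair and that of 3 control libraries on the right. Every etomoxir point lies below its control point. The lines are steepest for the 4 Sox15 peaks, whose differences run from -2.19 to -1.69. Centred on the median of all listed peaks, only the Sox15 differences stay negative, and that list holds only peaks that passed the authors' limit.

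Sox15 lies on chromosome arm 2R at 14201390 to 14212413 on the minus strand (dm6), spans 11024 bases and has 3 exons. Its promoter peak covered the transcription start (14212089 to 14212964), with 325 of its 876 bases in the 5′ untranslated part of exon 1 and 551 upstream of the gene. Its mean was 4.47 in etomoxir discs and 6.63 in control discs on the log2 scale, a difference of -2.16. As linear values, these were 22.2 normalized reads after etomoxir and 99.0 in control, so that 22.4% of the control signal was left. This ranked the Sox15 promoter 62nd by size of decrease among 1377 lower promoter peaks, whose median difference was -1.12. The paper names Sox15 among proximally expressed genes near peaks that fell after etomoxir, so this decrease had been reported from the same data. It also reports reduced Sox15 transcript signal where nejire was knocked down.

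The other 3 Sox15 peaks lay in intron 1, a stretch of 7235 bases of which they covered 28.8%. They are called A, B and C here, counted from the transcription start. Intron A began 3936 bases into the gene (14207494 to 14208477, 984 bases) and had a mean of 4.78 in etomoxir discs and 6.97 in control discs. Its difference of -2.19 was the largest decrease of the 8 Sox peaks and ranked 19th of 485 lower intronic peaks. In the table it is the only one of the 3 intronic peaks that carries the Sox15 identifier.

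Introns B and C were named for VGAT, the gene of the vesicular GABA transporter, whose transcription start is nearer. Intron B (14205900 to 14206494, 595 bases) lay 4651 bases from the VGAT start and 5919 bases from the Sox15 start. Intron C (14204607 to 14205114, 508 bases) lay 3358 and 7299 bases from them. At intron B the mean was 4.22 in etomoxir discs and 5.91 in control discs, a difference of -1.69 that ranked 93rd of the 485. At intron C it was 4.01 after etomoxir and 5.85 in control, a difference of -1.84 that ranked 57th. Both therefore fell together with the peaks at and near the Sox15 start, and a count by identifier alone would leave them out of Sox15. Which gene any of these elements serves was not measured.

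The 4 Sox15 peaks differed from each other by at most 0.50 in their log2 difference. Summed over their 2963 bases they held 84.4 normalized reads in etomoxir discs and 342.2 in control discs, so 24.7% remained. Per kb of peak the control signal was close to that of the table. It lay between 101.1 and 127.4 normalized reads per kb, against a median of 106.8 per kb in control over the lower peaks. The etomoxir signal was low, at 25.3 to 31.7 normalized reads per kb, where the lower peaks had a median of 45.9. Of all listed peaks, between 5.41% and 12.0% had less etomoxir signal per kb than a given Sox15 peak. The nearest listed peak outside Sox15 was 4758 bases away at RpS23, a gene of the small ribosomal subunit, where the mean was 6.51 in etomoxir discs and 7.37 in control discs (-0.86).

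Sox14 lies on the same arm at 23978801 to 23985177 on the plus strand and has 3 annotated starts. It had 1 listed peak of 1408 bases (23977381 to 23978788), which ended 13 bases before the first start, 311 before the second and 1107 before the third and overlapped no annotated gene. The mean was 6.48 in etomoxir discs and 7.52 in control discs, a difference of -1.04 that ranked 793rd of the 1377 lower promoter peaks. In normalized reads this was 89.3 after etomoxir and 183.5 in control, with 48.6% left. Per kb the control signal of 130.4 was the highest of the 8 Sox peaks, and the etomoxir signal was 63.4.

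**Figure D2:**
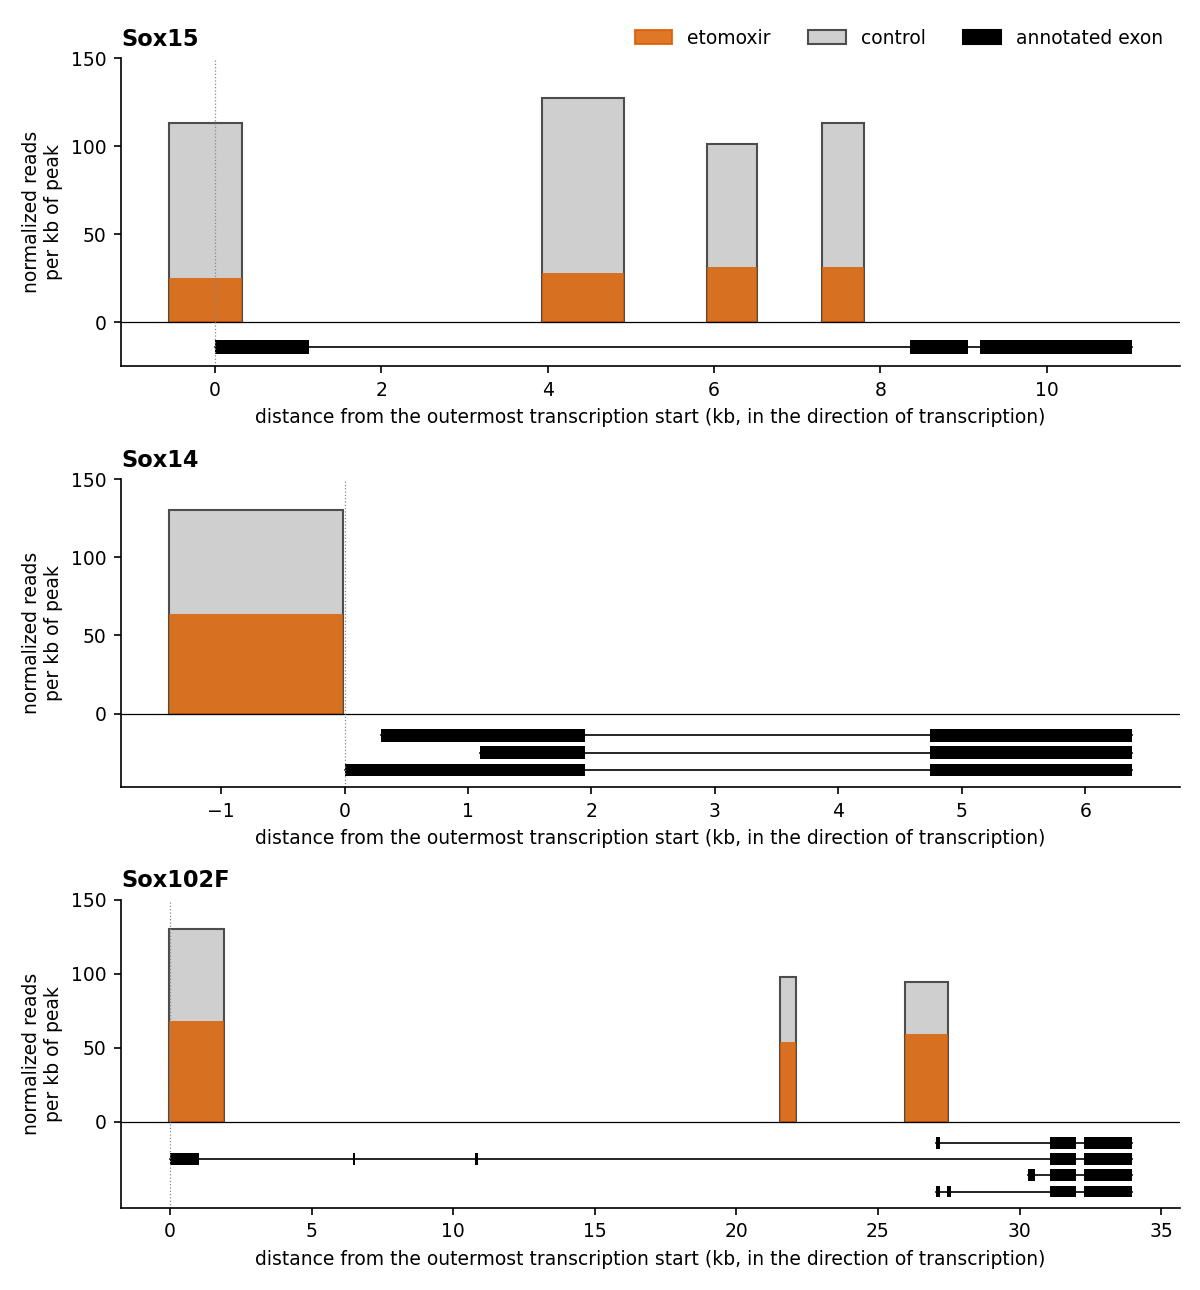
Normalized reads per kb (vertical axis) in etomoxir discs (orange) and control discs (grey outline) at each Sox peak, drawn to scale against distance in kb from the outermost transcription start, with the annotated transcripts and exons in black. The control bars are of like height in the 3 genes (94.5 to 130.4), while the etomoxir bars reach 25.3 to 31.7 in Sox15 and 54.0 to 68.2 in Sox14 and Sox102F.

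Sox102F lies on chromosome 4 at 800436 to 834393 on the minus strand and spans 33958 bases. Its transcripts begin at 3 places, 834393, 807347 and 804080, the first of them 27046 bases upstream of the second. The distal promoter peak (832490 to 834418, 1929 bases) covered the first start, the proximal promoter peak (806918 to 808451, 1534 bases) covered the second, and the third start was 2838 bases from the nearest listed peak. An intronic peak (812301 to 812869, 569 bases) lay between them.

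The distal promoter had the highest control signal of the 8 peaks, with a mean of 7.04 in etomoxir discs and 7.97 in control discs and a difference of -0.93. In normalized reads it held 131.6 after etomoxir and 250.7 in control. The intronic peak had a mean of 4.94 in etomoxir discs and 5.80 in control discs (-0.86). The proximal promoter had 6.51 in etomoxir discs and 7.18 in control discs, and its difference of -0.67 was the smallest of the 8. These decreases ranked 1649th, 1794th and 2063rd among the 2194 lower peaks, and all 3 decreases were smaller than the median of the lower peaks (-1.19). Summed over 4032 bases the 3 peaks held 253.4 normalized reads after etomoxir and 451.5 in control, so 56.1% remained. With limits on the authors' FDR of 0.01 the intronic and the proximal promoter peaks dropped out of the list, and the distal promoter was still in it at 0.001.

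A window from each of the 3 Sox102F peaks is shown so that its Sox-type matches, or their absence, can be read in place. These windows hold 3 of the matches counted over whole peaks further on. Each is a window of 300 bases from the RefSeq Release 6 genome (dm6), written 5′ to 3′ on the strand of the gene, with capitals marking AACAAT or its reverse complement ATTGTT. The first begins with the first base of the intron after the distal exon 1 (chr4:833079-833378) and has 1 match. The second is the centre of the intronic peak (chr4:812435-812734) and has 2 matches. The third is the stretch just upstream of the proximal start (chr4:807348-807647) and has 0.
Sox102F distal intron 1: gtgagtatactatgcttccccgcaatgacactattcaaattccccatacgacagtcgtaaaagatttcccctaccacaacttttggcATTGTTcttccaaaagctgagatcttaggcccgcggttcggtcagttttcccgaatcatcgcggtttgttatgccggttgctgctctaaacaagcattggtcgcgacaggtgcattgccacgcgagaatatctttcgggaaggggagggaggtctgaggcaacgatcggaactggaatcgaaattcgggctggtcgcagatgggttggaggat
Sox102F intron: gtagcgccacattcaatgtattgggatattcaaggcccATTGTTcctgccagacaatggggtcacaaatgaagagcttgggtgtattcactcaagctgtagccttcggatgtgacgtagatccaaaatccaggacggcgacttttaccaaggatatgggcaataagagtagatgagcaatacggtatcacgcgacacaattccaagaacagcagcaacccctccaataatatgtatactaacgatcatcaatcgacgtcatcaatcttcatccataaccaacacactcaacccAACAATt
Sox102F proximal promoter: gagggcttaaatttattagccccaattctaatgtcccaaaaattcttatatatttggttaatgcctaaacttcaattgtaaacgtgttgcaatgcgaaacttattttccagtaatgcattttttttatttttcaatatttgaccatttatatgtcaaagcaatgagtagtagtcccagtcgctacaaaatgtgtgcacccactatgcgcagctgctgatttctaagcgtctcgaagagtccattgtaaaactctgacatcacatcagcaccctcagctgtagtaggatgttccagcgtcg

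On chromosome 4 a lower peak was the less common kind. Of the 67 listed peaks there 12 (17.9%) were lower after etomoxir and 55 were higher. The 12 lower peaks fell in 4 genes: zfh2, a zinc finger homeodomain gene of the wing hinge (6 peaks, -1.86 to -1.18), Sox102F (3 peaks), ci, the transcription factor of Hedgehog signalling (2 peaks, -1.50 and -0.84), and Asator, a kinase gene (1 peak, -1.08). None of these genes had a higher peak. The 4 listed peaks nearest to Sox102F were all higher. At MED26, a Mediator subunit gene 8708 bases away, the mean was 7.56 in etomoxir discs and 7.02 in control discs (0.54), and a second MED26 peak had 6.67 in etomoxir discs and 5.67 in control discs (1.0). At Gyf, 32208 bases away, it was 8.97 after etomoxir and 7.84 in control (1.13). At the antisense RNA gene asRNA:CR44029, 44135 bases away, it was 8.21 after etomoxir and 7.79 in control (0.42). The decrease at Sox102F was thus flanked on both sides by increases within 50 kb.

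**Figure D3:**
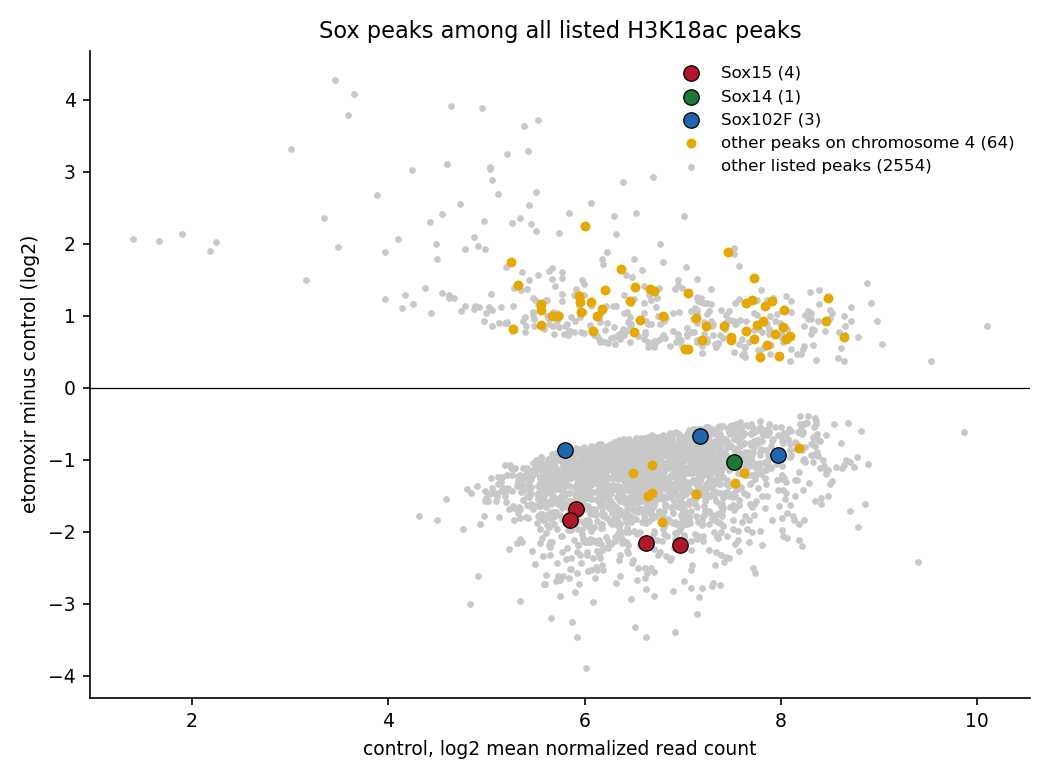
Etomoxir minus control (log2, vertical axis) against the control mean (log2 normalized read count, horizontal axis) for all 2626 listed peaks, with the peaks of Sox15 in red, Sox14 in green and Sox102F in blue, and the other peaks of chromosome 4 in yellow. The Sox15 points lie deep in the lower cloud (-2.19 to -1.69) and the Sox102F points in its upper part (-0.93 to -0.67). Above the zero line lie 55 of the 67 chromosome 4 peaks. The empty band around zero is where peaks did not pass the authors' limit.

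SoxN, D and Sox100B had no listed peak in either direction. The nearest listed peak was 16851 bases from SoxN, at lncRNA:CR45365 (5.36 in etomoxir discs and 6.27 in control discs, -0.91). It was 23324 bases from D, at saturn (5.23 after etomoxir and 6.69 in control, -1.46), and 164313 bases from Sox100B, at qless (6.0 after etomoxir and 6.90 in control, -0.90). Sox100B had 0 listed peaks within 50 kb. The table does not separate a gene without H3K18ac from one whose H3K18ac did not pass the limit, so whether these 3 genes carried the mark was not measured here. The same holds for Sox21a and Sox21b, the remaining Sox genes of the annotation, which were not members and had no listed peak.

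The DNA under the peaks was searched on both strands for AACAAT and, for comparison, for GGAATG, the core of the site bound by Scalloped and other TEAD factors, and GAGAG, the core of the GAGA factor site. No motif contains another. In the central 300 bases, AACAAT was found in 1 of 8 Sox peaks (12.5%) and in 25.7% of all listed peaks, GGAATG in 0 of 8 and in 15%, and GAGAG in 4 of 8 (50%) and in 41.6%. Over whole peaks, which differ in length, AACAAT was found in 4 of 8 Sox peaks (50%) against 61.2% of all, GGAATG in 37.5% against 42.0%, and GAGAG in 87.5% against 77.2%. The whole-peak matches to AACAAT were divided by gene. The 4 Sox15 peaks had 0, the Sox14 peak had 2, and the distal promoter, intron and proximal promoter of Sox102F had 3, 3 and 2. Per kb of peak this was 1.42 at Sox14 and 1.56, 5.27 and 1.3 at these Sox102F peaks. GC content was divided in the same way, at 50.8% to 54.3% in the Sox15 peaks, 37.0% at Sox14 and 40.9% to 45% at Sox102F, against a median of 44.7% over all listed peaks. AACAAT holds few G and C bases, and the parts of base composition and peak length in this split were not tested.

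The lists that follow were first counted by the identifier in the table, where 7.98% of protein-coding genes had a lower peak and 2.07% a higher one. Peaks that overlap a gene body under another name were then added, which makes these shares 9.97% and 2.7% and favours long genes. Among 13 other HMG-box genes, 3 had a lower peak and 0 a higher one by identifier, with a median of -1.70 over 9 peaks, where the median of all listed peaks was -1.08. With overlaps 4 had a lower peak, the added one being Dsp1, another HMGB-type gene (1 peak, -2.23, named for CG9921). HmgZ, which encodes a small chromatin protein of the HMGB type, had 3 lower peaks. At the one with the largest decrease the mean was 3.81 in etomoxir discs and 6.71 in control discs (-2.90). At cic (capicua), a repressor relieved by receptor tyrosine kinase signalling, 5 peaks fell, with differences of -2.29 to -0.71, and the one with the largest decrease had 4.48 after etomoxir and 6.77 in control. HmgD, the neighbour and relative of HmgZ, had 1 lower peak by identifier (4.86 after etomoxir and 6.56 in control, -1.70). By overlap 4 lower peaks lay on the HmgD body (-2.90 to -1.70), named for HmgD or HmgZ, and 2 on the HmgZ body. The genes therefore share peaks, the assignment between them is uncertain, and they are not independent cases in these counts. The TCF gene pan, the nuclear end of Wnt signalling, had no listed peak.

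Of 16 wing hinge and Wnt genes linked to Sox genes by place or pathway, 9 had a lower peak and 0 a higher one by identifier, against the 7.98% and 2.07% of all protein-coding genes, with a median of -1.23 over 27 peaks. With overlaps 11 had a lower peak and 0 a higher one, against 9.97% and 2.7%, the added genes being the Wnt receptor gene fz (5 peaks, -1.79 to -0.62) and nub, a POU-domain gene of the wing pouch (1 peak, -1.37). The largest decreases by identifier were at hth, a homeodomain gene of the hinge (5 peaks, at the largest decrease 4.38 in etomoxir discs and 6.38 in control discs, -2.0), and nkd, an antagonist of Wnt signalling that Wnt itself induces (2 peaks, 4.71 after etomoxir and 6.58 in control, -1.87). They were followed by zfh2 (4.93 after etomoxir and 6.79 in control, -1.86) and Antp, the Hox gene of the second thoracic segment (7 peaks, 4.51 after etomoxir and 6.18 in control, -1.67). A second Wnt receptor gene, fz2, and vg, the selector gene of the wing, both reached -1.50. The wingless gene wg had no listed peak. This list of 16 genes was chosen with earlier results of these data known. The paper itself names hth, as it does Sox15, among genes whose peaks fell, and it lists a transcript probe for zfh2. The counts for this list are therefore no independent measure of enrichment. Of 12 neural and ecdysone genes linked to the other Sox genes, 4 had a lower peak and 0 a higher one by identifier, against the same 7.98% and 2.07%, with a median of -1.17 over 11 peaks. They were the ecdysone response genes Eip74EF (3 peaks, to -1.99) and br (4 peaks, to -1.62), the ecdysone receptor gene EcR (3 peaks, to -1.33), and pros, a homeodomain gene of neural differentiation (1 peak, -1.04). With overlaps 5 had a lower peak, against 9.97%, the added one being the ecdysone response gene Eip75B (1 peak, -1.55). The largest Sox15 decrease (-2.19) was larger than any in these last 2 lists by identifier. With overlaps hth had 9 lower peaks and came to nearly the same value (-2.18). The largest decreases at HmgZ, at cic and, with overlaps, at Dsp1 (-2.23) were larger than that of Sox15.

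Markers of the sampled tissue were searched in the same way. Of 5 genes of the wing disc epithelium, 3 had a lower listed peak by identifier (vg, ap and sd), against 7.98% of protein-coding genes. With overlaps 4 had one (nub added), against 9.97%, and Dll had none. Markers of other cells that a disc preparation can hold were searched too. Of 2 tracheal cell markers, trh had 1 lower peak and btl had no listed peak by either count. Of 3 muscle precursor markers none had a peak by identifier, but 5 lower peaks named for CG42741 overlapped the annotated body of twi (-1.63 to -1.03). The haemocyte, fat body, and neuron and glia markers had 0 peaks by either count. Since the table holds only peaks that differed, this does not show which cells were present.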

How the data were processed

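The 5 Cut&Run libraries against H3K18ac comprised 2 from etomoxir-treated and 3 from control wing discs. According to the submitters' notes and the methods, reads were trimmed with Trim Galore 0.6.3 and aligned with Bowtie2 2.4.2 to dm6. Peaks were called with MACS2 2.1.1.20160309.6, compared with DiffBind 2.10.0 and annotated with ChIPseeker 1.18.0. The deposited table gives the authors' group means as log2 normalized read counts, the overall mean, the authors' fold change, p-value and FDR, and the nearest gene. The authors' fold changes and p-values are not printed or used. The FDR column, a deposited p-value type, served only to see that all 2626 peaks were at or below 0.05 and to apply stricter limits.

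Differences are the etomoxir mean minus the control mean, linear values are 2 raised to each mean, and both inherit rounding to 2 decimals. At 100.0% of peaks the overall mean equalled that of 3 control and 2 etomoxir libraries within 0.02, so the directly dissected discs are part of the control mean. Starts count from 0, since 965 of 965 distances that depend on the start were reproduced with 1 added and 0 as written, and 1 was added. Read totals per library are not in the table. The study's reporting summary gives one cultured control far more unique reads than the other libraries. Whether the spike-in DNA entered the scaling is not given in the sources used here.

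Gene models came from Ensembl release 115 (BDGP 6.54) and sequence from the RefSeq Release 6 genome, with identical coordinates for 99.76% of 17834 genes of the same symbol. Identifiers of 2576 peaks were in the annotation, 34 peaks matched by transcript and 16 had no current gene. In each list the genes with the largest differences, at most 5 and any tied with the last, are named. The members and lists were chosen with earlier results of these data known. Calculations used Python 3.11.15, numpy 2.4.6 and pandas 2.3.3, and the counters were tested on simulated data.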

Additional observations from a re-analysis of the deposited data

How the results depend on the processing

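Centring on the median of all listed peaks changed the sign at 4 of the 8 Sox peaks. These 4 fell by less than that median. The list holds only peaks that passed the authors' limit, so its median is no measure of a shift common to all peaks. The other alternatives could not change any sign, since they only selected or joined peaks, widened the motif window or added equal reads to both groups. The count of lower Sox peaks was 5 with a difference of at least 1 required, 6 at FDR limits of 0.01 and 0.001, 6 by identifier alone and 7 when the peak had to overlap the gene body. Merging peaks within 500 bases left 8, as it had to, because the smallest gap between Sox peaks was 785 bases. Adding 1 or 10 reads to each mean moved the differences by at most 0.06 and 0.47. That 16 of 16 values stayed negative was fixed in advance, because the same number was added to both groups. Centred on the median of all listed peaks (-1.08), the 4 Sox15 peaks stayed below it, whereas Sox14 came to 0.04 and the distal promoter, intron and proximal promoter of Sox102F to 0.15, 0.22 and 0.41, so only Sox15 fell by more than the table's median. AACAAT was found in 4 Sox peaks over whole peaks, against 1 in the central window. No paired analysis was possible because the table holds group means only, and leaving out each replicate was not run for the same reason. Adding peaks that overlap a gene body, an alternative chosen after seeing the data, raised the genes with a lower peak to 4 of 13, 11 of 16 and 5 of 12 in the 3 gene lists, to 4 of 5 for wing disc markers and to 1 of 3 for muscle precursor markers. Read depth per library, the spread between libraries and the effect of culture cannot be read from group means.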

Other observations

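Between the 3 Sox genes with listed peaks, the control signal per kb was close and the etomoxir signal was not. Over all listed bases of each gene it was 28.5 normalized reads per kb in etomoxir discs and 115.5 in control discs at Sox15, 63.4 and 130.4 at Sox14, and 62.9 and 112.0 at Sox102F. With no value per library, this difference between genes was not tested. Sox15 is also short for its number of peaks. Of the protein-coding genes overlapped by at least 4 lower peaks, only Sox15 and Trl, the gene of the GAGA factor, were 15000 bases long or shorter, a limit chosen after the values were seen. HmgD, also overlapped by 4 lower peaks, missed this limit narrowly with 15270 bases, so the pair depends on where the limit was set. Of the 496 genes with at least 2 listed peaks, 421 (84.9%) had only lower ones, as Sox15 and Sox102F did, and 10 had both kinds.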
